A study of Mus musculus with 6 samples.

Results

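Tbx21, Eomes, Prdm1, Id2 and Zeb2 encode 5 transcription factors that direct the effector differentiation of CD8+ T cells. Their H3K4me3 regions were taken as every deposited region that overlapped the gene body or the 5 kb on either side of it (GRCm38). This gave 23 of 48546 wild-type regions and 29 of 46565 Atg5-/- regions, at 5 of 21887 protein-coding genes. H3K4me3, a histone mark of active gene starts, was profiled by native chromatin immunoprecipitation after digestion with micrococcal nuclease. The cells were CD8+ tumour-infiltrating lymphocytes from E0771 tumours, a mouse mammary tumour line, grown in C57BL/6 mice. One group was wild type and the other carried a Cre-mediated deletion of Atg5, which encodes a protein needed to form autophagosomes. Each genotype had 1 H3K4me3 library, so no difference below has a replicate check and no p-value is given. The sources used here do not name the Cre driver, the age of the mice or any pooling of animals. The series lists 6 samples, of which the H3K27me3 and input samples entered none of the comparisons made here. Any use of the input in peak calling is not stated.

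The labelled cell type was checked on T cell genes first. In the wild-type list, Cd8a, Cd3e and Thy1 had 0 bp under regions over the gene body and 5 kb either side, against 8723, 5228 and 5752 bp in the Atg5-/- list. All 15 T cell markers were longer in the Atg5-/- list by at least 1.5 times and 500 bp. Of all protein-coding genes with any covered length, 13.3% were. The 15 markers summed to 34052 bp for the wild type and 247575 bp for Atg5-/-. Cd8a, Cd3e and Thy1 were the only 3 of the 15 without a wild-type region, and they were named after their values were seen. Every result below rests on this 1 pair of libraries. In such bulk samples, fewer cells of a type and less mark per cell cannot be told apart.

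T-bet (Tbx21) and Eomesodermin (Eomes) are related T-box factors that switch on genes of killing and of interferon gamma in T cells and NK cells. Blimp-1 (Prdm1) is a zinc-finger repressor that drives terminal effector differentiation, and Zeb2 is a zinc-finger repressor that acts with T-bet in the same course. Id2 binds E proteins and keeps them from DNA, which favours effector over memory cells. Tbx21 and Eomes are largely lymphoid in blood cells, whereas Prdm1, Id2 and Zeb2 are also used by myeloid cells and by other tissues. H3K4me3 usually sits in a block around the start of a transcribed gene, and wider blocks are common at genes of cell identity.

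The start sequences below show where the wild-type regions stopped and which motif letters the starts hold. They come from RefSeq (GRCm38.p6) and run from 250 bases before the start to 50 after it, 5′ to 3′ on the strand of the gene. The Tbx21 window (chr11:97115282-97115581, minus strand) is the one that the 2 lists covered unequally. Its capitals mark the 74 bases under a wild-type region, and all 300 bases lay under an Atg5-/- region, so its motif is left in lower case. The Eomes window (chr9:118477939-118478238, plus strand) lay wholly under regions in both lists and is shown because the region around its start differed most in width. In the Prdm1 window (chr10:44458699-44458998, minus strand) capitals mark an E-box. In the window of the second Zeb2 start (chr2:45113230-45113529, minus strand) they mark, from left to right, a PRDM1 core on the other strand, a STAT core and a T-box core.
Tbx21: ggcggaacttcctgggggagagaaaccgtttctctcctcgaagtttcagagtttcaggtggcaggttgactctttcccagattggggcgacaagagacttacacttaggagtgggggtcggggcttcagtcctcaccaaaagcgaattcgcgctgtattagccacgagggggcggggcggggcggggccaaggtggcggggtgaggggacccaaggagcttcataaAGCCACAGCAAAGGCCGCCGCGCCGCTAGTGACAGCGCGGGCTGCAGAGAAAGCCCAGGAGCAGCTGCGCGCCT
Eomes: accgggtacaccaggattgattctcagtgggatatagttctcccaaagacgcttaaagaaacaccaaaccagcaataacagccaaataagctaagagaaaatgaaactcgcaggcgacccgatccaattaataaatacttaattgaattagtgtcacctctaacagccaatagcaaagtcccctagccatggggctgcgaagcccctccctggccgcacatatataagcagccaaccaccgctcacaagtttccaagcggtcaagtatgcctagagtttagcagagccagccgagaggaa
Prdm1: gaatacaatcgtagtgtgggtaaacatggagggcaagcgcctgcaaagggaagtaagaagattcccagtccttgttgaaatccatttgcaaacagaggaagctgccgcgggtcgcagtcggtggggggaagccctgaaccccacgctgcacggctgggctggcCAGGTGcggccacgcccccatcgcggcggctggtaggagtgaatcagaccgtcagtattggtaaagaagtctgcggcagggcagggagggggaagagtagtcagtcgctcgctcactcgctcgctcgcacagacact
Zeb2, second start: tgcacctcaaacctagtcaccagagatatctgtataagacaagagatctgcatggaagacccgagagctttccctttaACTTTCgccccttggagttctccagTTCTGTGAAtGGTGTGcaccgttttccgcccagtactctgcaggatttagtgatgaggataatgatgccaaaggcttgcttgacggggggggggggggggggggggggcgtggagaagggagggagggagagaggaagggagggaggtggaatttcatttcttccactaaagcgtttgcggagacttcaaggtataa

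The RefSeq start windows used here number 8 for the 5 genes, with 4 for Zeb2 and 1 for each of the others. The 1 Prdm1 start lies inside its annotated gene, so no window marks the upstream end of that gene. In the wild-type list 7 of the 8 windows lay wholly under a region, the exception being Tbx21. In the Atg5-/- list 8 of 8 did. Of all 32851 RefSeq start windows, 38.6% lay wholly under wild-type regions and 40.8% under Atg5-/- regions. The starts also differed in base content. The Tbx21, Prdm1 and Id2 windows held 21, 20 and 21 CG pairs, against a median of 7 over all windows, and the Eomes window held 10.

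Motif letters were searched on both strands, and positions count from the leftmost letter to the start. The E-box CAGGTG, a sequence bound by ZEB proteins and by E proteins, occurred 196 bases before the Tbx21 start and 87 before the Prdm1 start, and 20.2% of all windows held it. The T-box core GGTGTG, which T-bet and Eomesodermin bind, was found in 3 of the 4 Zeb2 windows, and in 19.0% of all windows. The windows of the second Zeb2 start and of the third overlap and share the same match, 137 bases before the second start. They also share a PRDM1 core GAAAGT (14.3% of all windows) and a STAT core TTCNNNGAA (8.30%). The RUNX core TGTGGT (16.8%) was in none of the 8 windows. The Eomes and Id2 windows held none of these letters, nor did the window of the first Zeb2 start. That first start is the one used for the near-start Zeb2 values below. The motifs did not overlap each other. A match describes letters only and says nothing of binding.

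**Figure D1:**
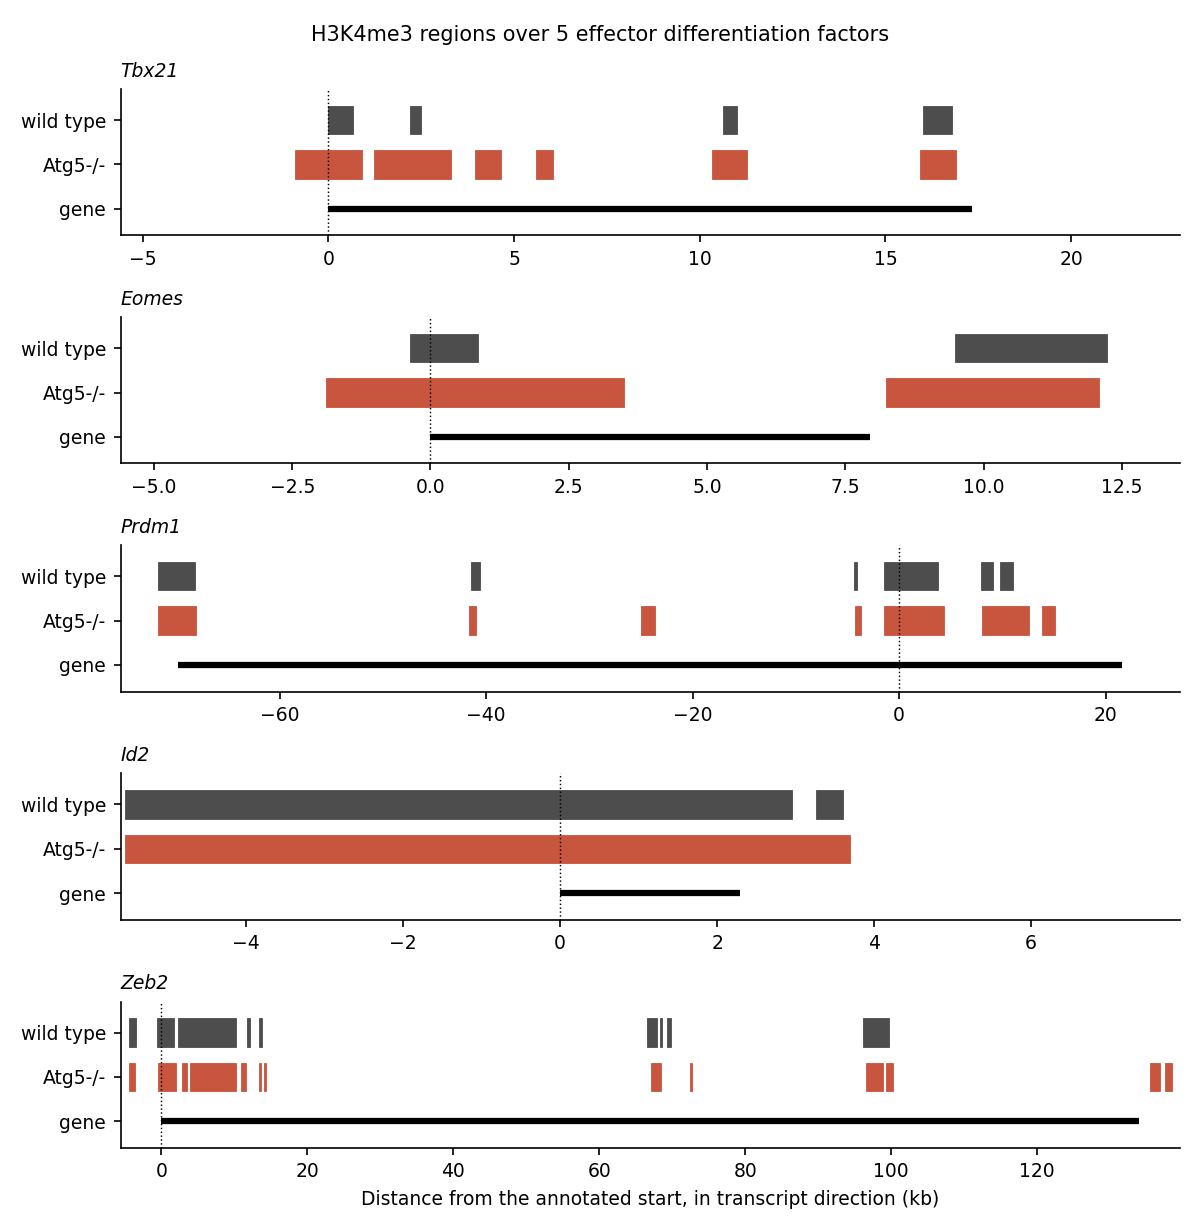
Regions of each list over the 5 genes, against the distance from the annotated start in kb (dotted line), with the gene body as a black bar; the scale differs between panels. The start regions of Tbx21 and Eomes are wider in the Atg5-/- list, while those of Id2 are alike and Prdm1 and Zeb2 differ mainly away from the start.

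Covered length, the number of bp under regions over the gene body and 5 kb either side, was larger in the Atg5-/- list for all 5 genes. Of all protein-coding genes with any covered length, 7672 were longer in that list and 8728 in the wild-type list. Id2 differed by only 385 bp, and the direction for Zeb2 depended on the window. Tbx21 and Eomes passed a limit of 1.5 times and 500 bp, which 13.3% of the 16415 protein-coding genes with any covered length passed in this direction. None of the 5 passed it towards the wild type, where 10.0% of genes did. The median difference, Atg5-/- minus wild type, was 4822 bp for the 5 genes and −50 bp for all genes. Longer genes offer more bp to cover, so the starts were also measured alone. Within 2.5 kb of the start, the same 2 genes passed the limit towards Atg5-/-, as did 9.38% of 11423 genes, and none passed it towards the wild type (3.72% of genes). There the median difference was 0 bp for the 5 genes and −15 bp for all genes. Of the 5 genes, 2 were longer in Atg5-/- there and 2 shorter, against 5348 and 5956 of all genes. The 15 T cell markers differed in the same direction as Tbx21 and Eomes, and their part in these differences was not tested.

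**Figure D2:**
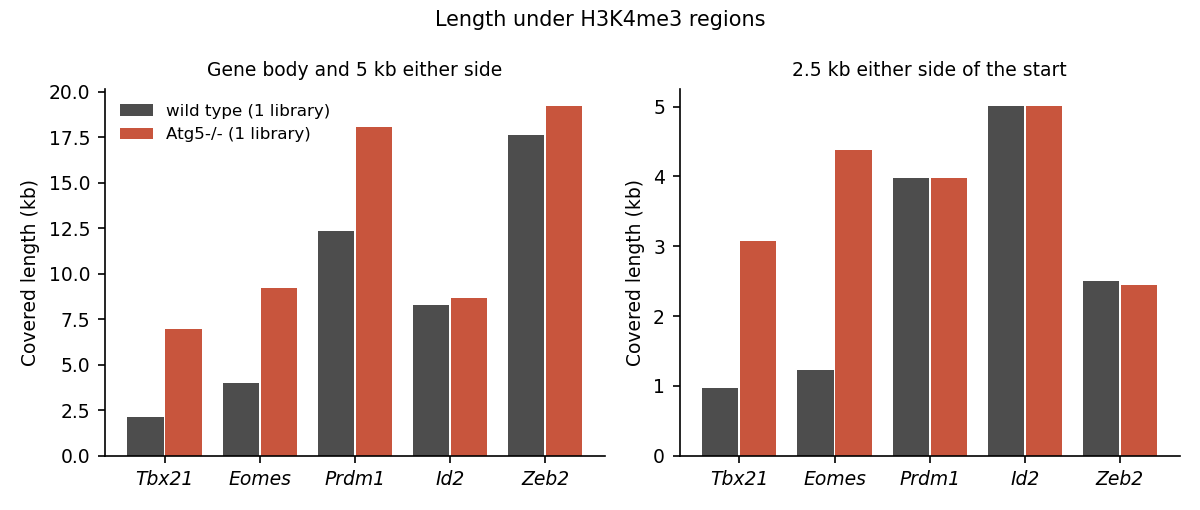
Covered length in kb for each gene, over the gene body with 5 kb flanks (left) and within 2.5 kb of the start (right); each bar is 1 library. Tbx21 and Eomes have the higher Atg5-/- bars in both panels, and near the start the other 3 genes differ by at most 49 bp.

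Tbx21 (chromosome 11, 97098007 to 97115331) had 4 wild-type and 6 Atg5-/- regions. They covered 2140 bp for the wild type and 6962 bp for Atg5-/-, or 7.83% and 25.5% of the window. At the start, the wild-type region was 680 bp wide and reached 24 bp upstream, and the Atg5-/- region was 1795 bp wide and reached 891 bp upstream. Its deposited fold over the local background was 8.06 for the wild type and 14.4 for Atg5-/-, values that are not scaled to each other. The next region into the gene had its summit 2.2 kb downstream in both lists and was 294 bp wide in the wild type and 2087 bp in Atg5-/-.

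The gene body of Tbx21 also held 2 regions that were in the Atg5-/- list only, with summits 4.6 and 5.8 kb downstream and 12 and 19 reads there. All 4 wild-type regions were contained in Atg5-/- regions. The region near the end of the gene differed least, with 784 bp for the wild type and 982 bp for Atg5-/-. Its summit held 36 wild-type and 25 Atg5-/- reads. Most of the difference in length thus lay around the start and in the part of the gene nearest to it.

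Eomes (chromosome 9, 118478186 to 118486132) had 2 regions in each list, and all of them were shared. Covered length was 3981 bp for the wild type and 9213 bp for Atg5-/-, or 22.2% and 51.3% of the window. The start region was 1231 bp wide in the wild type, from 369 bp upstream to 861 bp downstream. In Atg5-/- it was 5375 bp wide, from 1882 bp upstream to 3492 bp downstream, and wider than 97.8% of the regions in that list. The deposited fold was 3.64 for the wild type, higher than for 7.67% of that list, and 19.6 for Atg5-/-, higher than for 75.6%.

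The second Eomes region lay beyond the gene end, with its summit 10.8 kb downstream of the start in both lists. It overlapped Gm33460, a long non-coding RNA gene on the other strand (118486244 to 118489779). It was 2750 bp wide with 87 summit reads in the wild type, and 3838 bp wide with 75 reads in Atg5-/-. The start region also overlaps a long non-coding RNA gene on the other strand, Gm33408 (118447241 to 118478732). The summit of the start region lay 710 bp downstream of the Eomes start in the wild type and 143 bp upstream in Atg5-/-. What part of that region belongs to each gene was not tested. The 2 Eomes regions thus differed, with a wild-type signal that was low at the gene start and high beyond its end. Over the gene body alone the covered length was 865 bp against 3496 bp.

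Prdm1 (chromosome 10, 44437174 to 44528558) had 6 wild-type and 7 Atg5-/- regions, which covered 12357 and 18047 bp. This was 1.46 times, just inside the limit. The start used here (44458748) lies inside the annotated gene. There the regions were broad in both lists, 5241 bp for the wild type and 5843 bp for Atg5-/-. Within 2.5 kb of it they covered 3977 and 3975 bp. At the upstream end of the annotated gene the regions were 3553 and 3724 bp wide with 105 and 116 summit reads.

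Most of the added Prdm1 length lay away from both ends. In the stretch downstream of the start region, the wild type had separate regions of 1149 and 1239 bp with 18 and 16 summit reads. Atg5-/- had a single region of 4574 bp there with 65 reads. A region of 1271 bp with its summit 14.4 kb downstream and 34 reads was in the Atg5-/- list only. Another of 1403 bp, 24.4 kb upstream of the start and still inside the gene body, held 39 reads and was also in the Atg5-/- list only. No wild-type region met either of them, and the lowest summit of any wild-type region held 10 reads.

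Id2 (chromosome 12, 25093799 to 25096092) was covered alike in both lists. The covered length was 8312 bp for the wild type and 8697 bp for Atg5-/-, and the 5001 bp around the start were covered in full in both. The main region was 8502 bp wide in the wild type, wider than 99.8% of the regions in that list. In Atg5-/- it was 9237 bp wide (99.7%). It reached 5546 bp upstream of the start in the wild type and 5540 bp in Atg5-/-. A small wild-type region of 356 bp, downstream of the gene, lay within the single Atg5-/- region. Id2 had the highest deposited fold of the 5 genes in each list, 43.7 in the wild type and 50.9 in Atg5-/-.

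Zeb2 (chromosome 2, 44983512 to 45117442) had 9 wild-type and 13 Atg5-/- regions, which covered 17635 and 19204 bp. The direction was not stable. Over the gene body alone the wild type had more, 16169 bp against 15560 bp, and with only the 20000 highest-ranked regions of each list it had 14617 bp against 9712 bp, past the limit. Within 2.5 kb of the most upstream start the lengths were 2498 and 2449 bp. The region there was 2288 bp wide with 90 summit reads in the wild type, and 2449 bp wide with 65 reads in Atg5-/-.

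Inside the gene, the broad Zeb2 region over the other 3 starts was 7954 bp in the wild type, with 91 summit reads. It overlaps Zeb2os, a long non-coding RNA gene (45111138 to 45114087). In Atg5-/- the same stretch was split into regions of 6350 and 672 bp, with 89 and 13 reads. In Atg5-/-, 2 regions beyond the gene end, 1496 and 913 bp wide with 22 and 37 summit reads, met no wild-type region. These lie outside the gene body and enter only the wider window. Farther in, about 97 kb from the start, the wild type had a region of 3494 bp with 56 reads, and Atg5-/- had regions of 2371 and 1016 bp with 30 and 14 reads. Upstream of the gene, a region with its summit 4.1 kb from the start in the wild type held 47 reads, and its Atg5-/- counterpart held 17.

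The number of reads at each summit was recovered from the deposited fold and −log10 p, which removes the dependence on region width. Background over the genome came to 2.85 reads for the wild type and 2.62 for Atg5-/-. Over the 10249 protein-coding genes with a summit within 2.5 kb of the start in both lists, the background-scaled ratio, Atg5-/- over wild type, had a median of 1.17. Ratios below are given over that median. Eomes had 13 reads in the wild type (exact Poisson 95% interval 6.92 to 22.2) and 70 in Atg5-/- (54.6 to 88.4), a ratio of 5.01. Tbx21 had 30 reads (20.2 to 42.8) and 51 (38.0 to 67.1), a ratio of 1.58. These intervals are of reads not scaled between the libraries, and how many of all genes have separate intervals was not counted.

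Near the start, Prdm1 had 95 reads (76.9 to 116) and 113 (93.1 to 136), a ratio of 1.11. Id2 had 167 (143 to 194) and 183 (157 to 212), a ratio of 1.02, and Zeb2 had 90 (72.4 to 111) and 65 (50.2 to 82.8), a ratio of 0.672. All of these intervals cover counting error only. Eomes and Tbx21 were at or above 1.5 times, as were 9.43% of the genes measured, and 6.95% were as far below. Zeb2 lay just inside the lower limit. In the wild-type library the order by summit reads ran Id2, Prdm1, Zeb2, Tbx21, Eomes, with overlapping intervals for Prdm1 and Zeb2 and for Tbx21 and Eomes. In Atg5-/- it ran Id2, Prdm1, Eomes, Zeb2, Tbx21, where Eomes, Zeb2 and Tbx21 overlapped. Eomes thus had the lowest count of the 5 in the wild type, and in Atg5-/- only Id2 and Prdm1 had more.

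**Figure D3:**
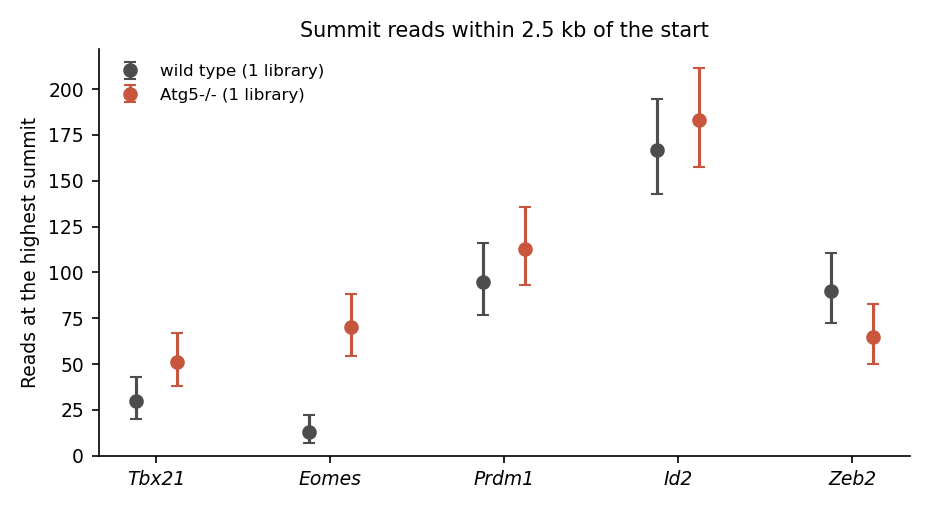
Reads at the highest summit within 2.5 kb of the start, 1 point per library, with exact Poisson 95% intervals (counting error only). Eomes is at 13 reads in the wild type and 70 in Atg5-/-, while the intervals of the other 4 genes overlap between the libraries. The reads are not scaled between the libraries, and how many of all genes have separate intervals was not counted.

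Region by region, 21 of the 23 wild-type regions overlapped an Atg5-/- region (91.3%, exact 95% interval 72.0 to 98.9%), against 73.3% of all wild-type regions. Of the 29 Atg5-/- regions, 20 overlapped a wild-type region (69.0%, 49.2 to 84.7%), against 76.0% of all. Regions of the same gene are not independent of each other. The 9 regions in the Atg5-/- list only were 5 at Zeb2, 2 at Prdm1 and 2 at Tbx21. They were narrower than the shared ones, with median widths of 763 and 1941 bp, and held 12 to 39 summit reads. The 2 in the wild-type list only were both at Zeb2, with 11 reads each. All regions over the most upstream listed starts were shared. The regions nearest the 5 kb limit were all at Zeb2, at 3497 bp (wild type) and 3624 bp (Atg5-/-) from the gene on the inside and at 5458 and 5451 bp on the outside. Their summits held 47 and 17 reads inside, and 35 and 29 outside.

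Genes that act around these factors were counted in the same way over the gene body and 5 kb either side, with 13.3% of all genes past the limit towards Atg5-/- and 10.0% towards the wild type. Of 17 cytokine inputs, 11 were past the limit towards Atg5-/- and none towards the wild type, with a median difference of 4142 bp. Jak1, a kinase of many cytokine receptors, had 9081 bp for the wild type and 43747 bp for Atg5-/-. Il21r, the receptor chain for IL-21, had 3761 and 18249 bp. Stat4, which carries the IL-12 signal that induces T-bet, had 3373 and 14995 bp, and Stat5b, which acts below IL-2, had 8866 and 19046 bp. These 4 were named for the largest differences of the 17, so large ratios follow from that choice, and 6 of the 17 were inside the limit. Near the start, Jak1 had 3232 and 3365 bp, Stat5b 3090 and 3492 bp, and Stat4 0 bp in both lists. Il21r had 2204 and 5001 bp there.

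Among 12 partner factors, 5 were past the limit towards Atg5-/- and none towards the wild type, with a median of 2351 bp. Runx3, which cooperates with T-bet in CD8+ T cells, had 3944 and 18464 bp. Irf4, induced by T cell receptor signals, had 1904 and 7230 bp. Ikzf3, a lymphoid zinc-finger factor, had 3723 and 20837 bp, and the nuclear receptor gene Rora had 7243 and 15548 bp. The 3 E protein genes, whose products Id2 binds, were all inside the limit. Tcf12 had 10995 and 15942 bp, Tcf3 6159 and 6681 bp, and Tcf4 25458 and 21971 bp.

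Factors that oppose effector differentiation and hold naive and memory states were counted next. Of 11, 8 were past the limit towards Atg5-/-, none towards the wild type, and the median difference was 5133 bp. Foxp1, a factor of T cell quiescence, had 28532 and 74070 bp. Bach2, a repressor that restrains effector genes, had 22583 and 65570 bp. Lef1 and Tcf7, partners in the naive and stem-like state, had 2496 and 39080 bp and 3997 and 23631 bp. Near the start alone, Foxp1 had 4400 and 4407 bp and Bach2 had 0 bp in both lists. Lef1 had 1106 and 4112 bp there, and Tcf7 2339 and 4605 bp. All 15 T cell markers were past the limit in the same direction as these 8, and their part was not tested.

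Of 16 effector target genes with any covered length, 12 were past the limit towards Atg5-/- and none towards the wild type (median 2153.5 bp). The 17th, Klrg1, a receptor of terminal effector cells, had no region in either list. Cxcr6, a chemokine receptor of tissue T cells, had 833 and 12541 bp, and Nkg7, a granule protein, had 663 and 6302 bp. Il7r and S1pr1, which are kept low in terminal effectors, had 2163 and 11648 bp and 2690 and 8952 bp. Of the listed targets, 6, among them Ifng, Gzmb and Prf1, had 0 bp in the wild type. Near the start alone, where fewer genes could be measured, 9.38% of all genes were past the limit towards Atg5-/- and 3.72% towards the wild type. Towards Atg5-/- these were 3 of 13 covered cytokine inputs, 3 of 8 partner factors, 3 of 9 opposing factors and 9 of 12 targets. Towards the wild type there were 2 of the 8 partner factors, Runx2 (620 and 0 bp) and Hopx (1430 and 872 bp), and none of the other 3 lists. Family relatives of the 5 factors were split, with 3 of 9 past the limit towards Atg5-/- and 2 towards the wild type. Tbr1, the closest relative of Eomes, had 638 and 4948 bp, and Prdm2 had 5998 and 11387 bp. Prdm16 had 3541 and 1091 bp, and Tbx3, inside the limit, had 10352 and 8126 bp.

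**Figure D4:**
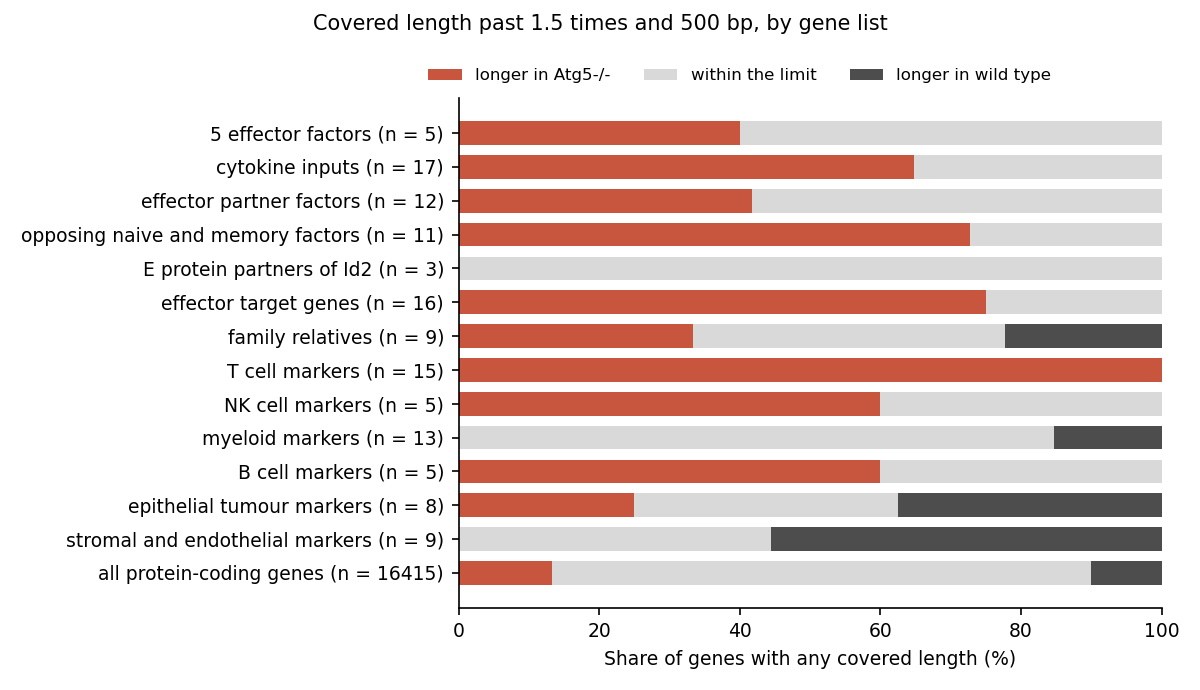
Share of the genes in each list that were longer past 1.5 times and 500 bp in Atg5-/- or in the wild type, among genes with any covered length (n beside each name). All 15 T cell markers lie on the Atg5-/- side, 5 of 9 stromal and endothelial markers on the wild-type side, and 2 of the 5 effector factors on the Atg5-/- side. Over all protein-coding genes the shares are 13.3% on the Atg5-/- side and 10.0% on the wild-type side.

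Markers of other cells were set beside the 5 factors. Of all genes, 13.3% were past the limit towards Atg5-/- and 10.0% towards the wild type. None of 13 myeloid markers was past the limit towards Atg5-/- and 2 were towards the wild type, with a median of −278 bp, sums of 55998 and 53235 bp and no marker at 0 in either list. These 2 were Clec7a (2378 and 609 bp) and Csf1r (3726 and 2160 bp), while Itgam (3512 and 4898 bp) and Tyrobp (7039 and 8353 bp) were inside the limit. Of 9 stromal and endothelial markers, 5 were past it towards the wild type, among them Cdh5 (8133 and 2776 bp), Col3a1 (7044 and 3936 bp) and Tie1 (2583 and 53 bp). Pecam1 had 12614 and 16437 bp. This list summed to 50528 and 39344 bp. Near the start alone, 9.38% of all genes were past the limit towards Atg5-/- and 3.72% towards the wild type. None of the 4 covered stromal and endothelial markers was past it there in either direction. There 3 of 8 covered myeloid markers, Clec7a, Lyz2 and Itgax, were past it towards the wild type, and 1, Fcgr3 (1997 and 3624 bp), towards Atg5-/-. Zeb2 had the lower Atg5-/- summit near its most upstream start, with 90 wild-type and 65 Atg5-/- reads. The broad region over its other starts had 91 and 89. Zeb2 is a gene that myeloid and stromal cells also use, and their part was not tested.

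Of the T cell markers, Bcl11b had 7170 and 47528 bp, Cd247 8120 and 30803 bp, and Cd8b1 705 and 19808 bp. Tbx21 and Eomes are also genes of NK cells. The counts below stand beside the same shares of all genes, 13.3% towards Atg5-/- and 10.0% towards the wild type. Of 5 NK markers with any covered length, 3 were past the limit towards Atg5-/-, namely Klrk1 (0 and 11429 bp), Klre1 (0 and 2635 bp) and Klrc1 (0 and 2478 bp). Klra4 had 3052 and 2271 bp and Klrb1c 369 and 525 bp, both inside the limit. Ncr1, a defining receptor of NK cells, and Klra8 were at 0 in both lists. The 7 NK markers summed to 3421 and 19338 bp. Of 5 covered B cell markers, 3 were past it towards Atg5-/-, among them Ebf1 (1456 and 3151 bp) and Cd79b (1917 and 3543 bp), and Cd79a had 4731 and 6971 bp. Their sums were 12855 and 19174 bp, with Ms4a1 at 0 in both. Of 8 epithelial markers, 2 were past it towards Atg5-/- and 3 towards the wild type. Esrp1 had 1417 and 3033 bp, Cldn7 1454 and 3026 bp, Ehf 2432 and 565 bp, and Cdh1 7586 and 8824 bp. This list summed to 21669 and 22454 bp, with Krt7 at 0 in Atg5-/-. Near the start alone, 2 of 5 covered NK, 1 of 1 B cell and 2 of 5 epithelial markers were past the limit towards Atg5-/-. None of these was past it there towards the wild type. The shares of all genes near the start were 9.38% and 3.72%. What part NK, B or epithelial cells had in the values of the 5 factors was not tested.

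The genes most like each factor were found by the Jaccard index of covered 100 bp bins within 5 kb of the start, in transcript direction, over both libraries and 17492 genes. An index of 1 means the same bins in both lists. The genes were picked for like bins, so covered lengths close to those of the factor follow from that choice. The closest to Eomes were Rasal3 (0.903), Btla (0.886) and Ikbke (0.849). Rasal3 had 1430 bp for the wild type and 4358 bp for Atg5-/- near its start, beside 1231 and 4383 bp for Eomes. Btla, an inhibitory receptor of lymphocytes, had 857 and 4297 bp. The closest to Tbx21 were Traf3ip3 (0.743), Dpp4 (0.662) and Xkrx (0.662), each with a longer Atg5-/- block.

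Prdm1 was most like Rasa3 (0.894), Arrdc3 (0.886) and Herpud2 (0.877), all covered over 3794 to 4042 bp near the start in both lists. Id2 was most like Arid5b (0.960), Msh5 (0.942) and Hoxd10 (0.936), with the 5001 bp covered in full for each in the wild type. Zeb2 was most like Stk17b (0.759), Appl2 (0.750) and Zc3h12a (0.740). With 2 libraries, the index describes the shape of the covered block and no more.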

How the data were processed

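Peaks were called with MACS2 on GRCm38 (mm10), per the submitters' processing notes. The sources used here do not give the settings, the aligner or any use of the input. By the peak names, each list holds 1 library. The deposited fold is a ratio at the summit over the background set in calling that list. Whether that background came from the input is not stated. The deposited −log10 p and −log10 q belong to the same summit, with a lowest −log10 q of 2.00 and 2.02. The deposited score repeats the −log10 q and was not used. None of these values is scaled between libraries, and depth is not stated in the lists.

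Regions off chromosomes 1 to 19, X and Y, 65 for the wild type and 64 for Atg5-/-, were left out. Genes came from RefSeq (GRCm38.p6), with starts for 79.9% of protein-coding genes and for all 5 members. The most upstream of the listed starts was used, which for Prdm1 is not the upstream end of the annotated gene. Exons and introns were not used here. Covered length depends on depth and on the calling threshold. Regions overlapping by 1 bp were shared. Summit reads were recovered as whole numbers from fold = (reads + 1)/(background + 1) and a Poisson p, which matched the deposited p to 0.001 on the −log10 scale in 48012 of 48014 (wild type) and 45834 of 45836 (Atg5-/-) regions below a −log10 p of 250. Summit reads were an addition made once the files had been seen. Intervals are exact (Clopper-Pearson or Poisson).

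The members and lists were chosen with earlier results of these data known. Named genes are the 5 members, their neighbours, up to 4 genes per list with the largest difference, and the 3 most like each member; some of the genes this rule names are not reported here. Cd8a, Cd3e, Thy1, Runx2, Hopx, Lyz2, Itgax, Fcgr3, Klrb1c and the genes at 0 fall outside this rule and were named after their values were seen. Zfp683 is no protein-coding gene in the table. Alternatives changed the window, the −log10 q minimum, the list length, the fold and the overlap. The steps, tested on simulated data, ran in Python 3.11.15 with SciPy 1.17.1, pandas 2.3.3, NumPy 2.4.6 and, for plots, Matplotlib 3.10.9.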

Additional observations from a re-analysis of the deposited data

How the results depend on the processing

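Tbx21 and Eomes passed the limit towards Atg5-/- in all 7 alternatives tried, with differences of 1795 to 4822 bp and 2631 to 6463 bp, and so did they by summit reads, an alternative chosen after the data were seen. The number of the 5 genes past the limit towards Atg5-/- was 2 or 3 throughout, while the share of all genes past it ran from 7.81% (2 times) to 16.0% (20000 regions per list), with Prdm1 as the third over the gene body alone (5651 bp), with 10 kb flanks (6945 bp), and for a −log10 q of 10 or more or with 20000 regions per list (8021 bp in both). Within 2.5 kb of the start Prdm1 differed by −2 bp. Zeb2 turned towards the wild type over the gene body alone (−609 bp), near the start (−49 bp), among regions with a −log10 q of 10 or more (−950 bp) and with 20000 regions per list (−4905 bp), where it was the 1 member past the limit in that direction, as were 9.04% of all genes. Why was not tested, apart from the window, which leaves out regions beyond the gene. The share of Atg5-/- regions that were shared was 48.3% when at least 50% of the region had to be covered, against 70.6% of all Atg5-/- regions. The share of wild-type regions was 100% for a −log10 q of 5 or more (17 of 17), against 76.3% of all. No paired analysis was possible because each genotype has 1 library. For the same reason no library could be left out. Summits under about 10 reads were not detectable in either list.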
